A study of Homo sapiens with 8 samples.

Results

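Hsp90 is an abundant cytosolic chaperone that folds and holds a set of client proteins, among them many kinases and steroid receptors, through a cycle of ATP binding and hydrolysis. Cochaperones load clients onto it, slow or speed the cycle, or release the product, and Hsp110 proteins help the partner chaperone Hsp70 by exchanging its nucleotide. Under proteotoxic stress heat shock factor 1 (HSF1) binds repeats of the letters GAA and TTC in promoters and raises the transcription of many of these genes, while cancer cells also keep them high without added stress. The 10 genes described here are both cytosolic Hsp90 genes (HSP90AA1 and HSP90AB1), the cytosolic Hsp110 gene HSPH1, and the cochaperone genes CHORDC1, STIP1, CDC37, FKBP4, AHSA1, PTGES3 and CACYBP. They were read at the array probe sets that carry one of these gene symbols and no other, which are 34 of 49395 probe sets and cover 9 of the 10 genes, among 18132 genes with a probe set of their own. AHSA1, the activator of the Hsp90 ATPase, has no annotated probe set of its own here and was not analysed. A further probe set carries HSP90AB1 together with its pseudogene HSP90AB3P and is described apart.

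RNA came from MIA PaCa-2, an established line of a human pancreatic carcinoma, grown with fetal bovine and horse serum. Cells received 30 μM pachymic acid (PA), a triterpenoid of the fungus Poria cocos, or its solvent DMSO, for 24 h, with 4 arrays per group on the Affymetrix Human PrimeView design. All cells are of 1 line, with no untreated group beside the solvent, and no source states whether the 4 samples of a group came from separate passages or days, so p-values measure the spread between these samples only. Values are log2 RMA signals, on which a difference of 1 is a doubling of the signal.

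The control arrays had medians of 5.71 to 5.74 and the PA arrays of 5.74 to 5.77. Highest signals were 14.58 to 14.62, and no array was set aside. Of 7 carcinoma markers, KRT8, KRT18, KRT19 and VIM had mean control signals of 11.50 to 14.38, whereas KRT7, EPCAM and CDH1 lay between 3.97 and 4.39, near the floor of 4 below which probe sets were not tested. Markers of other cell types were mixed. Of the pancreatic acinar genes PNLIP was below the floor in both groups. PRSS1 had mean signals of 6.47 and 6.56 in control and PA arrays, CPA1 of 4.29 and 4.48 and CELA3A of 5.13 and 5.27. The islet gene GCG was below the floor, and INS has no probe set of its own. Of the leukocyte genes PTPRC was below the floor in both groups, while CD3E had mean signals of 4.62 and 4.70 in control and PA arrays and CD68 of 8.44 and 8.55. Of the fibroblast genes DCN and LUM were below it, while COL1A1 stood at 5.10 and 5.24 and COL1A2 at 10.41 and 9.88. The endothelial genes PECAM1, VWF and CDH5 were above it, CDH5 at 7.54 and 7.93. The part of these markers in the results was not tested. The 8 background control probe sets richest in G and C averaged 6.77 ± 0.15 (SD, n = 4) on control arrays and 7.03 ± 0.082 on PA arrays. Counts are therefore also given from a fit adjusted for this GC-rich background, in which the background and the treatment are partly confounded. A gene was read at its brightest probe set. Raised and lowered mean an adjusted p under 0.05 from limma, whatever the fold, over 38748 probe sets or 15226 genes.

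Most of these genes were slightly higher with PA. Of the 9 genes 6 were raised, HSPH1, CHORDC1, STIP1, CDC37, CACYBP and FKBP4, and none was lowered, against 9.69% of all tested genes raised and 11.9% lowered. The changes of the 6 ran from 0.16 to 0.43 on the log2 scale, or 1.12-fold to 1.35-fold, and none reached 1.5-fold, which 0.466% of all tested genes and 0.475% of all probe sets did with a raised call. In 8 of the 9 genes the lowest PA array exceeded the highest control array, which held for 11.9% of all tested genes. The median change of the 9 genes was 0.17, beside 0.02 for all tested genes. With arrays centred on their medians these values were 0.14 and -0.01. Over the 33 probe sets tested, 15 were raised and none was lowered, where 8% of all probe sets were raised and 9.07% lowered, and 20 had no overlap between groups with PA above, against 11.1% of all. None had all PA arrays below, against 12.2% of all. These counts rest largely on HSPH1 and CHORDC1, which have 8 of the 33 probe sets each. HSPH1 gave 7 and CHORDC1 4 of the 15 raised, and 8 and 4 of the 20 without overlap. Adjusted for the GC-rich background 8 probe sets of the 33 were raised, 6 of them among the 15, and 0.952% of all were raised. All 8 belong to HSPH1 or CHORDC1. In the same setting 2 of the 6 genes stayed raised, HSPH1 and CHORDC1, against 1.56% of all genes.

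**Figure D1:**
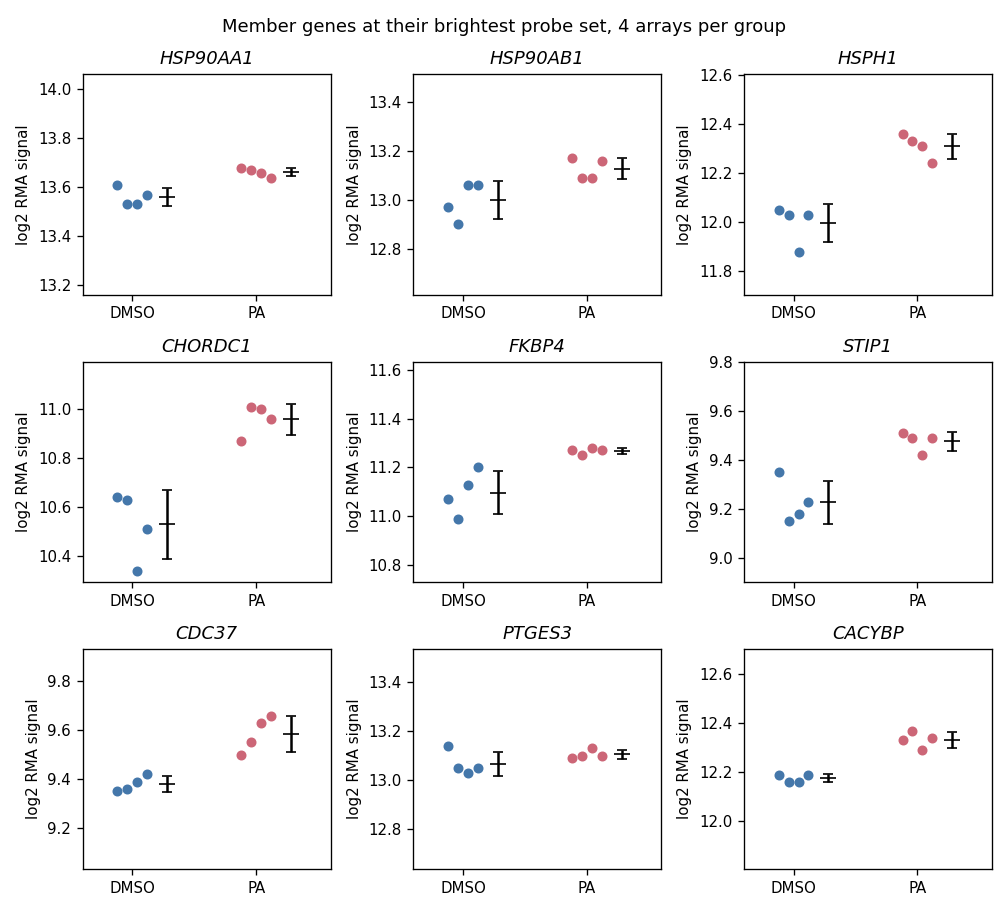
Log2 RMA signal (vertical axes, each spanning the same range) of the 9 measured genes at the brightest probe set of each, in DMSO (blue) and PA (red) arrays. Each point is 1 array and the black bars give mean and SD of 4. The groups are apart in every panel but that of PTGES3.

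Because HSF1 acts through promoter sequence, RefSeq promoter windows (GRCh38.p14, from 250 bases before to 50 after a transcript start) were searched for heat shock element letters on both strands, as exact matches. The forms searched were GAANNTTC and TTCNNGAA, with 2 units, and the same lengthened at the end by NNGAA and NNTTC to 3 units, so that every 3-unit match also holds 2-unit matches. The windows cover 9 of the 10 genes, AHSA1 among them, but none was available for FKBP4, which was not searched. A 3-unit match was found in 3 of the 15 windows of these genes, 1 each of CHORDC1, HSP90AA1 and HSP90AB1, and in 0.49% of all 35116 windows. A 2-unit match was in 4 of the 15, the fourth being a STIP1 window, and in 13.5% of all. The 250 bases before the start are printed for the 3 windows with a 3-unit match and for HSPH1, which had the most raised probe sets and has no match in its window, 5′ to 3′ on the strand of the gene with matched letters in capitals. They are, in order, from chr11:90223050-90223299 (minus strand), chr14:102087045-102087294 (minus strand), chr6:44247693-44247942 (plus strand) and chr13:31162389-31162638 (minus strand).
CHORDC1: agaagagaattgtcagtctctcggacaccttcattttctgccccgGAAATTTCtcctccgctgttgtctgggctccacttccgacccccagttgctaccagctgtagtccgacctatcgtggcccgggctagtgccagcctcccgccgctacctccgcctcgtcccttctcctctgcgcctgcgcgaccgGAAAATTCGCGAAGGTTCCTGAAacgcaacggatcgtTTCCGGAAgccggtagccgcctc
HSP90AA1: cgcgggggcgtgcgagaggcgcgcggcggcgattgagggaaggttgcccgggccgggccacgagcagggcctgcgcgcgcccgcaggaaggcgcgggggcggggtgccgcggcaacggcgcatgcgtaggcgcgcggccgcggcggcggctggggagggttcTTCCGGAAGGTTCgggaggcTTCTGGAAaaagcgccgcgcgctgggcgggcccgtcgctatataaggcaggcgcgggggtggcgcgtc
HSP90AB1: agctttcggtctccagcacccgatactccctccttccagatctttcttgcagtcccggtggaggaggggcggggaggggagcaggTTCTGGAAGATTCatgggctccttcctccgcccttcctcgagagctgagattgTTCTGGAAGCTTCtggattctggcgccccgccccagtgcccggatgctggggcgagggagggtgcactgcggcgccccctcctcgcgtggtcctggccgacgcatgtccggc
HSPH1: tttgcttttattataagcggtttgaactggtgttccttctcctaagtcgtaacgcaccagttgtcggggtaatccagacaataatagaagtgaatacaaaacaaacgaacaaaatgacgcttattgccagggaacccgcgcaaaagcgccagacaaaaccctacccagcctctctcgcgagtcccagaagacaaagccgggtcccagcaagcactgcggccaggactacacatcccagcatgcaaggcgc
In CHORDC1 the 3-unit matches overlap in 1 run that starts 60 bases before the transcript start, and in HSP90AA1 the match starts 88 bases before it. HSP90AB1 holds a pair of them, at 165 and 112 bases before the start that belongs to this window. Its other windows lie further upstream and hold no match. For transcripts that start there the matched letters lie past the start. The other window of HSP90AA1 holds no match either. A match is a string of letters and no measure of binding, and the absence of one speaks for this window alone.

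The cytosolic Hsp90 genes had small changes, of which those at the brightest probe sets did not pass. HSP90AA1 encodes Hsp90α, the stress-inducible form. At its brightest probe set it read 13.61, 13.53, 13.53 and 13.57 in control arrays and 13.68, 13.67, 13.66 and 13.64 in PA arrays, with no overlap. The change was 0.10 (standard error 0.0395, 95% interval 0.01 to 0.19) and did not pass (adjusted p = 0.0960 from limma over genes). Its other probe set, 11732996_at, built on a RefSeq transcript of the gene, read 11.38 to 11.42 in control and 11.56 to 11.65 in PA arrays and was raised by 0.21 (adjusted p = 0.0138 from limma over probe sets). The mean of both was also raised, by 0.16 (adjusted p = 0.0171 from limma). HSP90AB1 encodes Hsp90β, the constitutive form. It read 12.97, 12.90, 13.06 and 13.06 in control and 13.17, 13.09, 13.09 and 13.16 in PA arrays, again without overlap. The change of 0.13 (standard error 0.051, 95% interval 0.02 to 0.24) did not pass (adjusted p = 0.0994 from limma). The probe set shared with HSP90AB3P changed by 0.01, from 13.06 ± 0.032 to 13.07 ± 0.029, and its groups overlapped. Adjusted for the GC-rich background HSP90AA1 kept its size, 0.11, but with a 95% interval of -0.03 to 0.24. HSP90AB1 was at 0.01 (95% interval -0.12 to 0.14), and neither gene passed in that fit. When limma let the prior spread follow signal intensity, both genes passed (adjusted p = 0.0081 and 0.0157 from limma).

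The changes of both Hsp90 genes were not told apart. The log2 difference between HSP90AA1 and HSP90AB1 within an array changed by -0.03 with PA, less than its SD of 0.085 over control arrays (exact two-sided permutation test over 8 arrays, p = 0.629). The sign was not stable: the value was 0.03 with all probe sets averaged and 0.10 adjusted for the GC-rich background.

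HSPH1, the cytosolic Hsp110 that exchanges the nucleotide of Hsp70 and holds unfolded proteins, was raised at nearly every probe set. At the brightest, 11755205_a_at, it read 12.05, 12.03, 11.88 and 12.03 in control and 12.36, 12.33, 12.31 and 12.24 in PA arrays. The lowest PA array was thus well above the highest control array, and control replicate 3 stood below the other control arrays. The change was 0.31, or 1.24-fold (standard error 0.052, adjusted p = 0.0041 from limma), and 0.38 adjusted for the GC-rich background. The adjusted change passed over genes (adjusted p = 0.0429 from limma) but not over probe sets (adjusted p = 0.0594 from limma), and 3 of the 8 HSPH1 probe sets were raised in that fit. The 8 HSPH1 probe sets had changes of 0.22 to 0.41, and in all 8 the groups did not overlap. Of them 7 were raised, and the last, which changed by 0.22, had an adjusted p of 0.0621 from limma. The steepest was 11717096_a_at, from 11.06 ± 0.093 to 11.46 ± 0.069, or 1.32-fold. Some of these probe sets are built on the same sequence and all report 1 gene, so they are no independent replicates of the change.

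HSPA4, a second Hsp110 gene of the cytosol that most cells express throughout, rose as well. It read 12.09, 12.04, 11.95 and 12.08 in control and 12.30, 12.27, 12.29 and 12.23 in PA arrays, with no overlap (log2 change 0.23, adjusted p = 0.0083 from limma). HSPH1 changed by 0.08 more than HSPA4, and the per-array difference of both did not overlap between groups. This gave p = 0.0286 in the exact two-sided permutation test, the smallest that 4 arrays against 4 allow. After adjustment over the 2 pairs of genes compared it was 0.0571 and did not pass. Given the value of the other pair, so few arrays allow no lower adjusted value, so the correction could not be passed. With all probe sets averaged the difference was 0.15. HYOU1, the Hsp110 of the endoplasmic reticulum, was raised by 0.24, from 7.52 ± 0.026 to 7.76 ± 0.054 (adjusted p = 0.0058 from limma), but with its probe sets averaged it was at 0.10 and did not pass. HSPA4L, another cytosolic relative, changed by -0.02, the Hsp90 of the endoplasmic reticulum HSP90B1 by 0.01 and the mitochondrial Hsp90 TRAP1 by 0.09, and none of these passed. Averaged over probe sets HSP90B1 was at -0.12 and HSPA4L at 0.10, again without passing. Of these 5 relatives 2 were raised and none was lowered, against 9.69% and 11.9% of all genes. None was raised after adjustment for the GC-rich background, against 1.56% of all genes.

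CHORDC1, a zinc-binding cochaperone of Hsp90 also called morgana, had the largest change of the 9 genes at their brightest probe sets. Averaged over all probe sets it was at 0.30 and HSPH1 at 0.34, both raised. At its brightest probe set it read 10.64, 10.63, 10.34 and 10.51 in control and 10.87, 11.01, 11.00 and 10.96 in PA arrays. The groups did not overlap, and control replicate 3 was the lowest array. The change was 0.43, or 1.35-fold (standard error 0.072, adjusted p = 0.0041 from limma). In control replicate 3, where HSPH1 was also lowest, the GC-rich background had its highest value of the control arrays, 6.945. Adjusted for that background the rise of CHORDC1 was 0.64, with a standard error of 0.068 (adjusted p = 0.0090 from limma), and without control replicate 3 it was 0.37. The part of the background in these changes was not tested.

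The 8 probe sets of CHORDC1 were less alike than those of HSPH1. The 3 brightest and 1 of the others were raised, with changes of 0.34 to 0.50. The largest change of any of the 33 probe sets was at 11743054_a_at, which read 9.44, 9.35, 9.29 and 9.37 in control and 9.85, 9.88, 9.91 and 9.82 in PA arrays. Here the change of 0.50, or 1.42-fold, was far beyond the control SD of 0.062 (adjusted p = 6.1e-04 from limma). The other 4 probe sets had control signals of 4.99 to 7.06, changed by 0.11 to 0.30 with overlapping groups, and did not pass. Of these 4, 2 were raised after adjustment for the GC-rich background, 11743053_a_at at 0.58 instead of 0.11 (adjusted p = 0.0404 from limma) and 11763369_at at 0.87 instead of 0.17 (adjusted p = 0.0299 from limma). In that fit 5 of the 8 probe sets were raised. At the dimmest of them the control arrays alone ranged from 4.46 to 5.62.

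**Figure D2:**
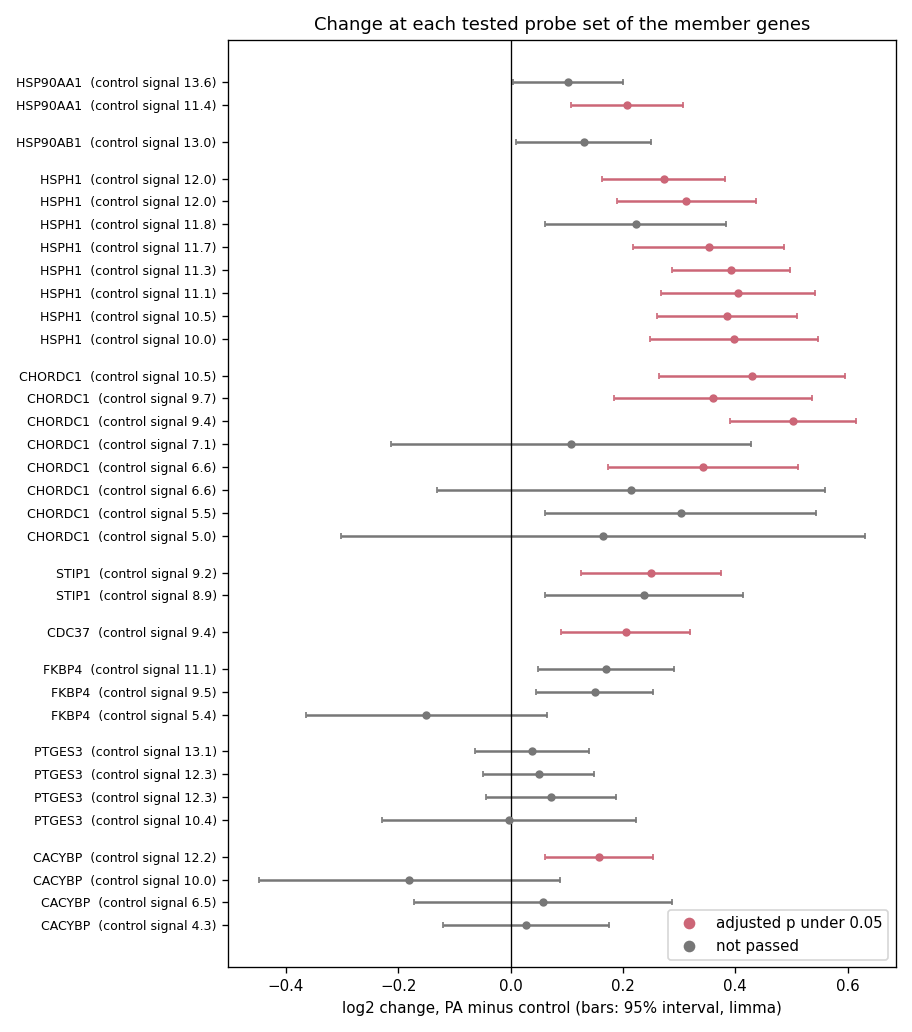
Log2 change, PA minus control (horizontal axis), at each of the 33 tested probe sets, grouped by gene and ordered within a gene by mean control signal. Points are estimates, bars 95% intervals from limma, and red marks an adjusted p under 0.05. HSPH1 probe sets lie between 0.22 and 0.41, while those of CHORDC1 with low signal have wide intervals.

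Cochaperones that load clients onto Hsp90 rose by 1.19-fold or less. STIP1 (Hop) bridges Hsp70 and Hsp90 and passes clients such as steroid receptors between them. It read 9.35, 9.15, 9.18 and 9.23 in control and 9.51, 9.49, 9.42 and 9.49 in PA arrays, with no overlap, and was raised by 0.25, or 1.19-fold (standard error 0.053, adjusted p = 0.0112 from limma). Its other probe set changed by 0.24, with 1 control array inside the range of the PA arrays, and did not pass (adjusted p = 0.0672). CDC37 is the adaptor that brings protein kinases to Hsp90. Its only probe set read 9.35, 9.36, 9.39 and 9.42 in control and 9.50, 9.55, 9.63 and 9.66 in PA arrays, a rise of 0.21 with no overlap (standard error 0.048, adjusted p = 0.0171 from limma). Adjusted for the GC-rich background both kept their size, STIP1 at 0.23 and CDC37 at 0.21, with standard errors of 0.083 and 0.075, and neither passed.

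FKBP4 (FKBP52), a cochaperone that acts late in the cycle, is a prolyl isomerase that serves steroid receptors. It read 11.07, 10.99, 11.13 and 11.20 in control and 11.27, 11.25, 11.28 and 11.27 in PA arrays. The groups did not overlap, and the change of 0.17 passed over genes (adjusted p = 0.0433 from limma) but not over probe sets (adjusted p = 0.0590). It no longer passed when any array but control replicate 4 was left out, nor with no filter (adjusted p = 0.0572 from limma) or with arrays centred on their medians (adjusted p = 0.0655 from limma). The change was 0.08 adjusted for the GC-rich background and 0.06 with its 3 probe sets averaged. PTGES3 (p23) binds Hsp90 in its closed, ATP-bound form and holds the client in place. It read 13.14, 13.05, 13.03 and 13.05 in control and 13.09, 13.10, 13.13 and 13.10 in PA arrays, which overlap. None of its 4 probe sets passed, and at the brightest the change was 0.04 (95% interval -0.06 to 0.13), so that a rise as large as that of HSPH1 lies outside the interval. Whether FKBP4 and PTGES3 differ in their change was not tested. Their intervals overlap (0.05 to 0.29 for FKBP4), and adjusted for the GC-rich background both were at 0.08.

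CACYBP, a protein with a p23-like domain that binds S100A6 and the ubiquitin ligase SIAH1, differed between its probe sets. The brightest read 12.19, 12.16, 12.16 and 12.19 in control and 12.33, 12.37, 12.29 and 12.34 in PA arrays, without overlap, and was raised by 0.16 (standard error 0.039, adjusted p = 0.0204 from limma). The next brightest changed by -0.18, with a control SD of 0.27 against 0.083 in PA arrays, and did not pass. The other 2 tested probe sets changed by 0.03 and 0.06 with overlapping groups, and the last, with mean signals of 3.95 and 3.81, was not tested. Averaged over its tested probe sets CACYBP changed by 0.02 and did not pass, nor did it without control replicate 2, PA replicate 2 or PA replicate 4 (adjusted p = 0.0507, 0.0633 and 0.0547 from limma).

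The suffix of a probe set tells how specific its design is, _s_at and _x_at marking sets that can also catch transcripts of other genes or unrelated sequence. Of the 33 tested, 14 carry these suffixes, among them all of PTGES3, the raised ones of CACYBP and CDC37, and the brightest ones of HSP90AA1 and FKBP4. Of the 14, 6 were raised, and of the other 19, 9 were raised. The share of raised probe sets over the whole array was 7.98% and 8% in these classes. Several of these genes have processed pseudogenes, whose part in the signal was not tested.

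Across the 8 arrays some other genes followed these levels closely. Over all tested genes the pattern most like that of HSPH1 was of EIF2S1, which encodes the α subunit of eIF2, with a Pearson r of 0.999 over 8 arrays and a change of 0.26. SETD3, a histidine methyltransferase of actin, was next (r = 0.994, change 0.22), followed by HSPA4 (r = 0.993). For HSP90AA1 the closest were NUDT5 (r = 0.981, change 0.09), TMEM41B (r = 0.977, change 0.19) and SCX (r = 0.975, change 0.28). The 8 points share the treatment, the normalization and the array, and the genes were picked as the highest of 15226 values, so these correlations are a description.

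The remaining Hsp90 cochaperones moved both ways. Of 34 listed, 32 were tested, 6 were raised and 4 were lowered, with a median change of 0.05. The shares for all genes were 9.69% raised and 11.9% lowered. NUDCD1, of the NudC family, read 9.66, 9.64, 9.67 and 9.66 in control and 10.02, 9.99, 9.97 and 9.98 in PA arrays, a rise of 0.33 that stands far outside the spread of either group (adjusted p = 8.1e-04 from limma). With its probe sets averaged it was 0.14 and did not pass. PPID, another prolyl isomerase of Hsp90 complexes, rose by 0.21 (adjusted p = 0.0146 from limma). ST13 (Hip), which slows the Hsp70 cycle, was lowered, reading 11.25, 11.26, 11.19 and 11.16 in control and 10.99, 11.04, 11.00 and 11.02 in PA arrays, a change of -0.20 with no overlap (adjusted p = 0.0099). FNIP1, a partner of folliculin that inhibits the Hsp90 ATPase, changed by -0.35 (adjusted p = 0.0115 from limma), but by -0.12 with its probe sets averaged, where it did not pass. The other lowered genes were NUDCD2 at -0.14 and FLCN at -0.21, which were named after their values were seen, and the groups of FLCN overlapped. With probe sets averaged ST13 and NUDCD2 stayed lowered and FLCN did not. The other raised genes, also named after their values were seen, were RUVBL1 at 0.28, TOMM34 and ITGB1BP2 at 0.22 each and NUDC at 0.18. In each of these the groups did not overlap, and each stayed raised with probe sets averaged. Adjusted for the GC-rich background 3 of the 32 were raised, NUDCD1, RUVBL1 and CDC37L1, and none was lowered. In that fit 238 of all 15226 genes were raised and 232 were lowered. CDC37L1 was not raised without that adjustment at its brightest probe set.

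Of the heat shock factors, HSF1 changed by 0.17 (adjusted p = 0.101 from limma), HSBP1, which binds and restrains it, by -0.09 and HSF4 by -0.06, and none passed. HSF2 has no annotated probe set of its own here. Activation of HSF1 is a matter of its protein, which was not measured.

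Transcripts of known Hsp90 clients had calls in both directions. Of 30 listed, 24 were tested, 2 were raised and 4 were lowered, where 9.69% of all genes were raised and 11.9% lowered, with a median change of 0.02. MET, the receptor of hepatocyte growth factor, read 9.13, 9.30, 9.10 and 9.14 in control and 8.46, 8.45, 8.47 and 8.46 in PA arrays, a change of -0.71 with the PA arrays nearly identical (adjusted p = 1.5e-04 from limma). With all its probe sets averaged it was -0.28, still lowered. NR3C1, the glucocorticoid receptor, which Hsp90 keeps ready to bind hormone, read 9.64, 9.76, 9.66 and 9.67 in control and 9.25, 9.14, 9.22 and 9.17 in PA arrays, a change of -0.49 without overlap (adjusted p = 3.9e-04). IGF1R, the receptor of insulin-like growth factor 1, changed by -0.60 (adjusted p = 0.0031) and by -0.26 with its probe sets averaged. INSR, the insulin receptor, changed by -0.17 (adjusted p = 0.0348), a call that the averaged probe sets did not give. Nor did any of the fits that left out a control array give it. The raised clients were the kinases CDK4 and AURKB, by 0.14 and 0.16, and neither passed in any of the fits that left out a control array. Both were named for their calls. With probe sets averaged CDK4 was at 0.08 and did not pass, while AURKB stayed raised. HIF1A, which changed by 0.005 at its brightest probe set, was raised by 0.18 when averaged (adjusted p = 0.0129 from limma). Adjusted for the GC-rich background 2 clients were lowered, MET and NR3C1, and none was raised. Of all 15226 genes that fit lowered 232 and raised 238. The proteins, on which Hsp90 acts, were not measured.

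**Figure D3:**
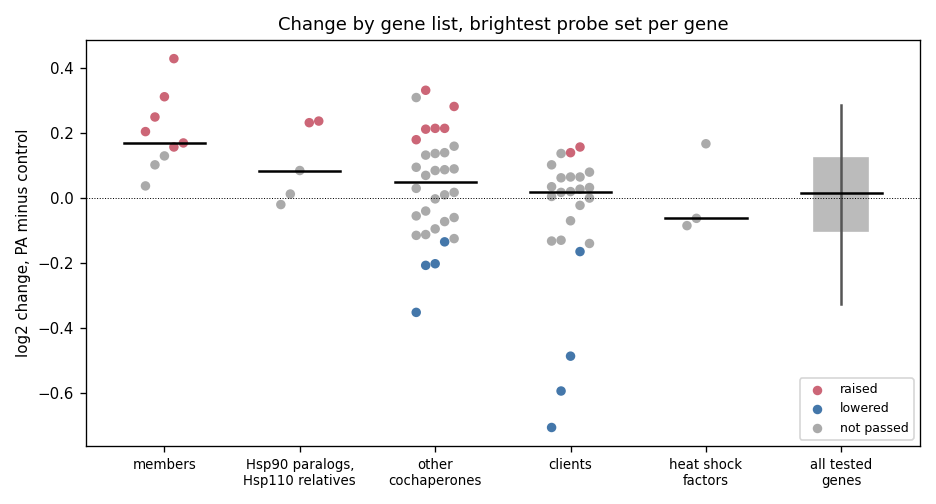
Log2 change, PA minus control (vertical axis), of each tested gene in the 5 gene lists, 1 point per gene at its brightest probe set, with black lines for list medians. The last column gives all 15226 tested genes as median, 0.25 to 0.75 quantiles (box) and 0.05 to 0.95 quantiles (line). The 9 genes have a median of 0.17 and none is below 0, while the other cochaperones lie on both sides.

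The plot of the 9 genes under 6 ways of processing shows where the calls hinge on a choice. HSPH1 and CHORDC1 passed in each of the 6, and HSP90AB1 and PTGES3 in none.

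**Figure D4:**
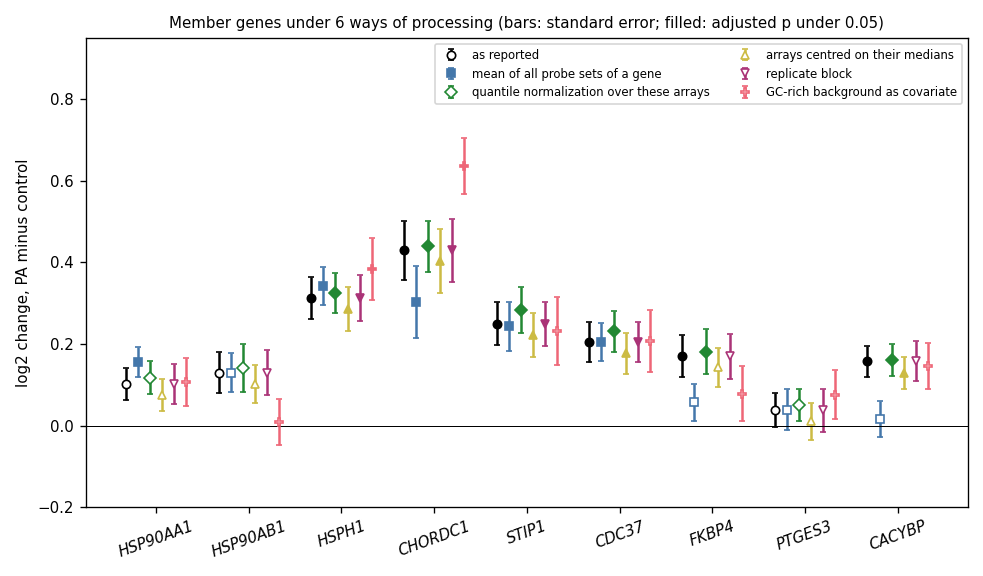
Log2 change, PA minus control (vertical axis), of each gene as reported and under 5 alternatives. Bars are standard errors and filled symbols have an adjusted p under 0.05. Adjusting for the GC-rich background moves CHORDC1 from 0.43 to 0.64.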

How the data were processed

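The deposited values are log2 RMA signals that the authors computed with RMA (background correction, quantile normalization, median polish) in the Partek software, from total RNA labelled with the 3′ IVT Express kit and scanned with GCOS, versions not given. They are rounded to 2 decimals and not centred. Quantile normalization forces like distributions on all arrays, so changes are relative to the whole array. Gene symbols are those of the platform annotation, of which the RefSeq gene table changed 0. Of 49395 probe sets 44994 carry 1 symbol, 1832 several and 2569 none, and the table includes 102 control probe sets.

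A probe set entered the test if either group mean reached 4. A gene was read at its single-symbol probe set with the highest mean over the 8 arrays. The comparison used limma 3.58.1 (lmFit, eBayes; R 4.3.3) with treatment as the only term, as no second cell line was analysed here, and p-values were adjusted by Benjamini-Hochberg over all probe sets or all genes tested. Differences between changes of 2 genes were tested by exact two-sided permutation over arrays. Depth does not apply to arrays, whose number limits the precision. The limma fit with treatment as the only term was run on simulated data as a check, which did not cover the permutation tests or the other fits.

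The genes and lists were chosen with earlier results of these data known. Named are the 10 genes, up to 4 of each other list with the smallest adjusted p, HSPA4 as the gene set beside HSPH1, and the 3 genes closest in pattern to HSP90AA1 and to HSPH1. Others were named after their values were seen. Promoters come from RefSeq (GRCh38.p14) and matched 9 of the 10 genes, all but FKBP4. The alternatives were filters at 5 or none, 2 other normalizations, an intensity trend, array weights, unmoderated spread, the replicate number as a block, the GC-rich background as a covariate, other call rules, the mean of a gene's probe sets, leaving out each array, and, chosen after seeing the data, leaving out probe sets of suffix _s_at or _x_at. Figures were drawn with matplotlib 3.10.9.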

Additional observations from a re-analysis of the deposited data

Results flagged for a closer look

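In 4 of 98 groups of 4 arrays 1 array stood apart from the other 3 by more than Dixon's 95% limit, and chance flags about 1 in 20. Control replicate 3 read 11.88 at the brightest HSPH1 probe set, where the other control arrays read 12.03 to 12.05. PA replicate 1 read 6.38 at the CHORDC1 probe set 11743052_a_at against 6.88 to 6.96 in the other PA arrays, and 4.98 at 11763369_at against 5.19 to 5.23. Neither of these probe sets was called in the unadjusted fit, but 11763369_at was raised after adjustment for the GC-rich background. PA replicate 4 read 7.84 for HYOU1 against 7.73 to 7.74.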

How the results depend on the processing

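Without 1 array the 9 genes had 4 to 6 raised and the 33 probe sets 13 to 15. Neither had a lowered call in any alternative run, and no call changed its direction. The other cochaperones had 4 to 6 raised and 2 to 3 lowered, the clients 0 to 1 raised and 3 to 4 lowered, and the relatives 2 raised. The change of HSPH1 less that of HSPA4 ran from 0.0708 to 0.0908 (p = 0.0571 in the exact permutation test without PA replicate 1 or 2) and that of HSP90AA1 less that of HSP90AB1 from -0.06 to 0.00.

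With the covariate of GC-rich background 8 probe sets, 2 genes, 0 relatives, 3 other cochaperones and 0 clients were raised, and 0 other cochaperones and 2 clients lowered. With at least 1.5-fold required the raised were 0 in each of these, the lowered 0 other cochaperones and 2 clients. At an unadjusted p under 1e-05 the raised were 1 probe set, 0 genes, 0 relatives, 1 other cochaperone and 0 clients, the lowered 0 other cochaperones and 2 clients. With the probe sets of each gene averaged 1 relative was raised and 2 other cochaperones lowered. The raised clients were 0 without a filter, 0 with arrays centred and 1 with array weights. Without probe sets of suffix _s_at or _x_at 9 of 19 were raised. The cause was not tested where a value moved, but the covariate differs between the groups.

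No pairing by replicate number was seen: deviations from the group means correlated at -0.153 to 0.0527 between same-numbered arrays. So few arrays cannot settle whether same-numbered samples were handled together. With the number as a block 12 of the probe sets and 4 of the genes were raised, FKBP4 and CACYBP no longer, along with 2 lowered other cochaperones and 0 raised clients. The blocked HSPH1 and HSPA4 difference was 0.08 (exact sign-flip p = 0.125, the smallest 4 pairs allow). Over the whole array the block left 1585 probe sets raised and 2003 lowered, of 3098 and 3516, and the covariate 369 and 237. The fold rule left 184 and 255, the unadjusted p 183 and 148, and leaving out 1 array 1860 to 2974 and 2180 to 3581.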
